A study of Gossypium hirsutum with 120 samples.

Results

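The GASA family of gibberellin-regulated peptides, which includes the snakins and GAST1-like proteins, was followed in nectaries of Gossypium hirsutum TM-1 (upland cotton) and in the tissue beside them. Family members were chosen by the best Arabidopsis match that the deposited table gives for each predicted cotton protein, from 10 listed Arabidopsis genes, and the family itself was selected with earlier measurements of these samples known. This gave 24 rows out of 49663 in the table. They match 8 of the 10 genes: AT1G75750 (GASA1, 7 rows), AT5G14920 (GASA14, 6 rows), AT5G15230 (GASA4, 3 rows), AT3G10185 (GASA13, 3 rows), AT1G22690 (GASA9, 2 rows), and AT1G74670 (GASA6), AT2G14900 (GASA7) and AT4G09600 (GASA3) with 1 row each. No row of the table has AT4G09610 or AT3G02885 as its best match. By protein accession, 22 of the rows carry a cotton gene name, for 21 genes, since LOC107933623 has a row for each of its isoforms X1 and X2.

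RNA of dissected nectaries was compared with RNA of the non-nectary tissue adjacent to them (the control), in plants of 1 genotype. Each of the 4 nectary types (floral, bracteal, circumbracteal, foliar) and its control has 2 or 3 RNA samples from before secretion and 3 from after it, called pre-secretory and post-secretory, and the floral pair also has 3 each from the secretory stage. The secretory foliar nectary and its control are 1 RNA sample each in the values used here. Further secretory foliar samples of the series, and its secretory bracteal and circumbracteal samples, are not analysed here. Each RNA sample is a pool of several nectaries. For the floral nectary the stages are the day before anthesis, anthesis and the day after. For the bracteal and circumbracteal nectaries they are young squares of match-head size and bolls some weeks after anthesis. For the foliar nectary they are a young expanding leaf, a larger leaf with visible nectar and a mature leaf without it. The labels do not say which plants a replicate came from, so p-values measure the spread between these pools.

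GASA proteins are small, secreted peptides with a conserved cysteine-rich domain at the C-terminal end, and the first of them, tomato GAST1, was found as a transcript that gibberellin raises. Gibberellin binds the receptor GID1, which leads to the destruction of DELLA proteins, the repressors of the hormone's response, and many GASA genes lie downstream of that step. Members have been linked to cell expansion, flowering, germination and redox balance in Arabidopsis, and the snakins of potato act against microbes.

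The deposited values look like read counts scaled by a factor of the row and rounded, as read from the steps between low values, and here each RNA sample's values were divided by a factor from its upper quartile (the normalized value used throughout). Totals per RNA sample ran between 7489375 and 16203450, and 30965 to 48112 rows were above 0. The circumbracteal nectary had the lowest detection, and 4 of its 6 RNA samples had under 38000 rows above 0. Fits without these samples leave this nectary without replicates at either stage. A call lost in them can therefore not be put down to low detection. A summed level of the nectary markers CRABS CLAW, SWEET9 and CWINV4 (8 rows) was higher in every nectary sample than in every adjacent sample of its type and stage. At floral secretion it was 13910 to 22690 in the nectary, against 1512 to 2658 in the adjacent tissue, and in the pre-secretory bracteal pair 2349 to 3040 in the nectary, against 70.02 to 2203. In the other adjacent tissues it was at most 779. By the test described below, 7 of the 8 marker rows were higher and 1 lower in the nectary in at least 1 of 9 tissue comparisons. Of all rows, 8.88% were higher and 16.8% lower at least once. Secretory floral nectary replicate 3 stood apart in the family, with a summed family level of 16929 against 2035 and 3293 in the other two samples. Family rows made up 0.0227% to 1.15% of a sample's total, with a median of 0.149%.

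All 24 rows passed the filter for testing (a deposited value of 10 in at least 2 RNA samples). The test was limma, fitted to log2(normalized value + 1) of 48846 rows, and a row was called at a Benjamini-Hochberg adjusted p under 0.05 with a change of at least 1.5-fold. In the pre-secretory floral nectary 1 family row was called higher and 3 lower than in the adjacent tissue, while 3.67% and 4.32% of all rows were. At the secretory stage 5 were lower, beside 5.35% of all rows, and at the post-secretory stage 1 was higher and 1 lower, beside 1.77% and 2.03%. Post-secretory bracteal nectaries had 3 lower rows (1.24% of all rows). Circumbracteal nectaries had 4 lower rows at the pre-secretory stage (6.01%), and 1 higher and 2 lower at the post-secretory stage (1.61% and 4.8%). In the pre-secretory foliar nectary 4 rows were called higher and none lower, and 0.586% of all rows were called higher there. No family row was called by limma in the pre-secretory bracteal nectary, where 2 had an unadjusted p under 0.05 and 0.0614% of all rows were called, or in the post-secretory foliar nectary, where 4 had an unadjusted p under 0.05 and 2.01% were called. The median log2 fold change of the family rows was -0.53 in the pre-secretory and -0.16 in the post-secretory circumbracteal pair, where that of all rows was -0.27 and -0.26. Several of these counts turned on single samples. The 4 calls in the pre-secretory floral pair became 0 or 1 without nectary replicate 1 or 2, and 1 or 2 without control replicate 1 or 2, and the 5 at secretion became 2 without control replicate 2. The 4 in the pre-secretory foliar pair became 2 or 1 without nectary replicate 1 or 2, and 2 or 0 without control replicate 1 or 3. The circumbracteal counts became 1 without pre-secretory nectary replicate 3, without post-secretory nectary replicate 2 or without control replicate 2 of either stage, and 6 without post-secretory nectary replicate 1. Without the 4 samples of low detection they became 0 at the pre-secretory and 1 at the post-secretory stage, and the pre-secretory count was also 0 when the fit held only the compared groups. The post-secretory bracteal count became 1 without replicate 3 of either tissue, and the post-secretory foliar one 1 without control replicate 2.

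At least 1 of the 10 stage comparisons called 20 of the 24 rows, and 40.9% of all rows tested. At least 1 of the 9 tissue comparisons called 15 of the 24, and 24.9% of all rows. In the floral nectary 1 row rose and 2 fell from the pre-secretory to the secretory stage (2.48% and 2.22% of all rows), and 7 rose and none fell between secretion and the stage after it (2.39% of all rows rose), with 1 call when the fit held only the compared groups. Post-secretory against pre-secretory, 4 rows fell in the bracteal nectary (3.2%), 2 rose and 8 fell in the circumbracteal nectary (12.4% and 10.1%, with 5 calls without the 4 samples of low detection), and 10 fell in the foliar nectary (8.56%). In the adjacent tissues, 2 rows rose and 1 fell at floral secretion (1.12% and 0.561%), 3 fell in the bracteal (4.02%) and 6 in the circumbracteal tissue (5.08%), and 3 rose and 8 fell in the leaf (5.11% and 9.19%). None was called between the secretory and post-secretory floral controls, where 2 had an unadjusted p under 0.05 and 0.162% of all rows were called. The median log2 change of the 24 rows was -3.00 in the foliar nectary and -2.60 in the leaf beside it, against 0.09 and -0.03 over all rows tested, and 1.85 in the floral nectary after secretion, against 0 over all rows. The 10 falls in the foliar nectary became 3 calls without pre-secretory replicate 1 and 6 without post-secretory replicate 2, and the 4 in the bracteal nectary became 1 without pre-secretory replicate 3 and 2 without post-secretory replicate 3. The bracteal control had 0 calls when the fit held only the compared groups, 1 without pre-secretory replicate 2 and 0 without replicate 3 of either stage. The floral control at secretion had 1 call without pre-secretory or secretory replicate 1, and later 1 without post-secretory replicate 3.

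**Figure D1:**
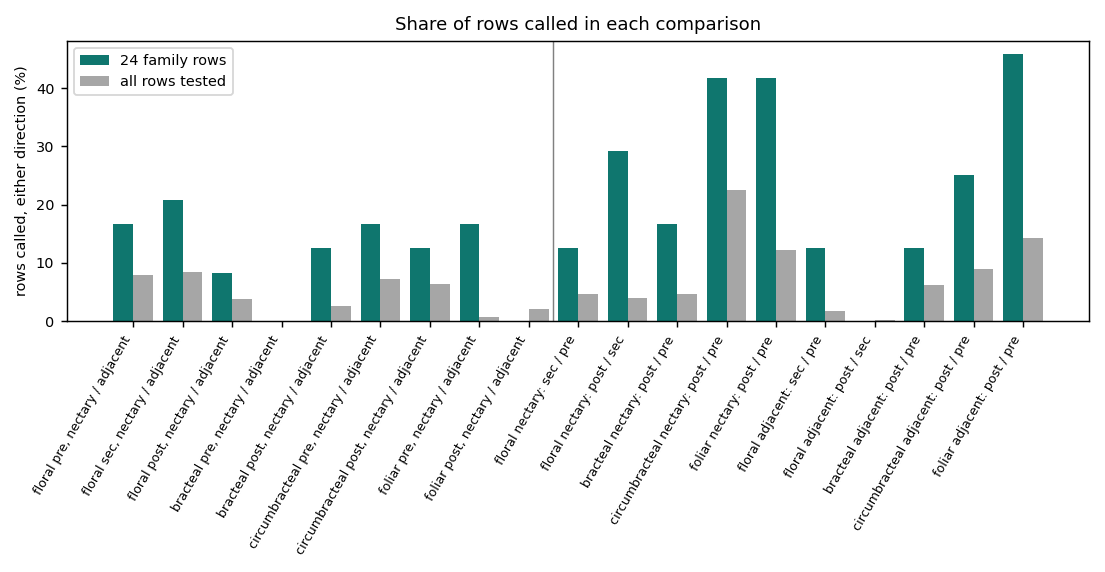
Share of rows called in either direction (%) in each comparison, for the 24 family rows (green bars) and for all 48846 rows tested (grey bars), with the 9 comparisons of nectary and adjacent tissue left of the line and the 10 stage comparisons right of it. The tallest family bars are those of the leaf beside the foliar nectary (45.8%) and of the foliar and circumbracteal nectaries (41.7% each), post-secretory against pre-secretory.

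**Figure D2:**
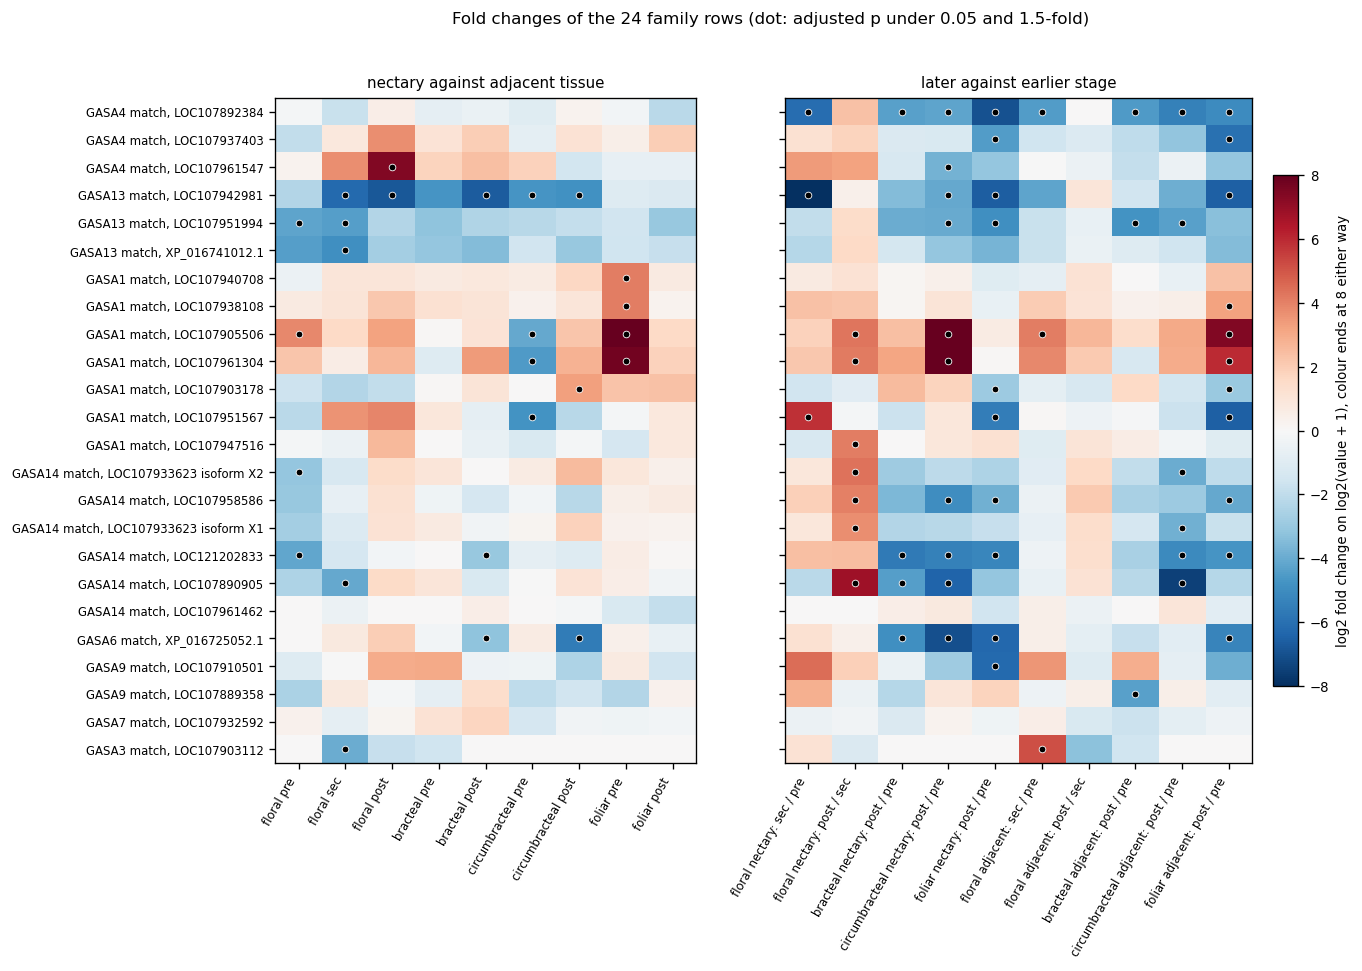
Log2 fold changes of the 24 family rows (rows of the map, grouped by Arabidopsis match) in the comparisons of nectary with adjacent tissue (left) and of a later with an earlier stage (right), red for higher and blue for lower in the nectary or the later stage, with a black dot where the row was called. The GASA4 row LOC107892384 has a dot in 8 of the 10 stage comparisons and in none of the 9 tissue comparisons, and the GASA13 row LOC107942981 is blue in all 9 tissue comparisons.

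The most abundant family row was LOC107892384, annotated as gibberellin-regulated protein 4-like, with a mean of 10089 over the 51 RNA samples. Its Arabidopsis match, GASA4, is a gibberellin-induced gene of growing tissues and meristems. It was high at the pre-secretory stage in nectaries and adjacent tissues alike, and lower afterwards. In the floral nectary it measured 22819.7 and 8984 before secretion, 92.1, 103 and 987 at secretion and 1821, 409 and 1741 after it. In the tissue beside it the values were 41359.7, 14373 and 7038 before secretion, 299, 1160.3 and 1155 at secretion and 433, 1164 and 908 after it. No later floral sample reached the lowest pre-secretory one in either tissue. In the foliar nectary it measured 125, 124 and 186 at the post-secretory stage, against 27131 and 11549.7 at the pre-secretory stage. The leaf beside it had 623, 644 and 614 at the post-secretory stage, against 34343 and 12579 at the pre-secretory stage. All mature leaf samples lay above the mature nectary samples, and no mature sample reached a young one.

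In the post-secretory circumbracteal nectary LOC107892384 measured 1044, 1458 and 1005, against 26567, 18266 and 19757 in the pre-secretory one. The adjacent tissue had 5466, 1068 and 149, against 47347, 39118 and 38305 before. Post-secretory bracteal nectaries had 1254, 1611 and 286, against 12373 and 23885 in pre-secretory ones, and the tissue beside them 6687, 1049 and 253, against 14474 and 54989. Stages did not overlap in any of these 4 comparisons, and replicates of the post-secretory adjacent tissues differed more than those of the nectaries. The row fell in all 8 comparisons that start at the pre-secretory stage. The decline was largest in the foliar nectary (log2 fold change -6.95 ± 1.08 (SE), limma adjusted p = 2.29e-05) and the floral nectary (log2 fold change -6.08 ± 1.08 (SE), limma adjusted p = 0.000305). It was -4.20 ± 0.96 in the circumbracteal (adjusted p = 0.00139) and -4.37 ± 1.08 in the bracteal nectary (adjusted p = 0.0113). In the adjacent tissues the log2 changes were -5.44 ± 0.96 (circumbracteal), -5.05 ± 1.08 (leaf), -4.54 ± 1.08 (bracteal) and -4.45 ± 0.96 (floral, secretory), with limma adjusted p of 0.000207, 0.000907, 0.00642 and 0.00693 in that order. The call was lost in the bracteal nectary without pre-secretory replicate 3 or post-secretory replicate 3 (adjusted p = 0.241 and 0.092), and in its control without the same numbers (0.203 and 0.0812). In the floral control it was lost without pre-secretory replicate 1 or secretory replicate 1 (0.0916 and 0.0988), and in the circumbracteal nectary without the 4 samples of low detection (0.0864). Between nectary and adjacent tissue LOC107892384 was not called at any of 9 stages, with log2 fold changes of -2.13 to 0.50.

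**Figure D3:**
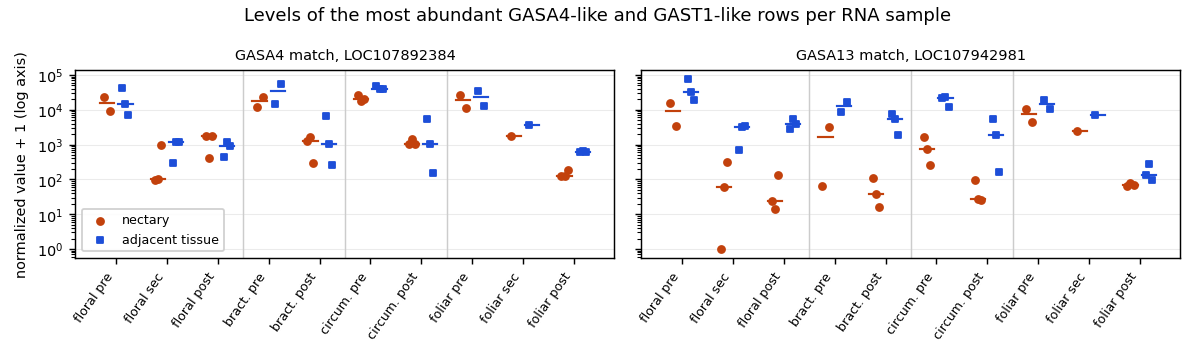
Normalized value plus 1 (log axis) of LOC107892384 (GASA4 match, left) and LOC107942981 (GASA13 match, annotated GAST1-like, right) in each RNA sample of the nectary (orange circles) and its adjacent tissue (blue squares), by nectary type and stage, with lines at group medians. The GASA4 row is high at each pre-secretory stage in both tissues, and the GAST1-like row lies lower in every nectary sample than in every replicated adjacent sample of its type and stage.

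LOC107942981, annotated as GAST1-like for the tomato gene and matched to GASA13, was the next most abundant row (mean 6556) and held the highest value in the family. At each of the 9 replicated stages every nectary sample lay below every adjacent sample, and 5 of these differences passed the test. At floral secretion it measured 0, 60.8 and 315 in the nectary, against 710.0, 3200.2 and 3506 in the adjacent tissue (log2 fold change -6.21 ± 1.31 (SE), limma adjusted p = 0.00135). After secretion it measured 22.3, 13.2 and 137 in the nectary, against 2811, 5568 and 3831 (log2 fold change -6.78 ± 1.31 (SE), limma adjusted p = 0.000973). The lowest adjacent sample of both stages was thus above the highest nectary sample, although the adjacent tissue at secretion carried nectary markers as given above.

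Post-secretory bracteal nectaries had 112, 38.0 and 15.3 of LOC107942981, against 7484, 5478 and 1916 in the tissue beside them (log2 fold change -6.69 ± 1.31 (SE), limma adjusted p = 0.00172). Circumbracteal nectaries had 97.5, 26.4 and 25.1 at the post-secretory stage, against 5448, 1888 and 164 in the adjacent tissue (log2 fold change -4.85 ± 1.31 (SE), limma adjusted p = 0.0195), and 1642, 767 and 263 at the pre-secretory stage, against 21379.6, 23213 and 12060.3 (log2 fold change -4.71 ± 1.31 (SE), limma adjusted p = 0.0213). The floral and bracteal calls held whichever RNA sample was left out. Both circumbracteal calls were lost without the 4 samples of low detection (adjusted p = 0.228 and 0.393). The post-secretory one was also lost without nectary replicate 2 or control replicate 1 or 2 (adjusted p = 0.0797, 0.106 and 0.0805), and the pre-secretory one without nectary replicate 3 or control replicate 1 or 2 (0.124, 0.0526 and 0.0717).

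The other stages did not pass. The pre-secretory floral nectary had 15584 and 3451, against 78221, 32166 and 19385 in the adjacent tissue (log2 fold change -2.32 ± 1.46, adjusted p = 0.434). The pre-secretory bracteal nectary had 61.7 and 3289.8, against 8655 and 17259 (-4.75 ± 1.60, adjusted p = 0.462). In the foliar pair it was 10273 and 4565 in the nectary, against 18701 and 10449 in the young leaf (-1.03 ± 1.60, adjusted p = 1), and 62.9, 77.3 and 65.8 in the nectary, against 132, 278 and 97.7 in the mature leaf (-1.15 ± 1.31, adjusted p = 1). Foliar nectaries were therefore the type in which nectary and adjacent samples of LOC107942981 lay closest. Over time the row fell in the floral nectary at secretion (log2 fold change -8.09 ± 1.46 (SE), limma adjusted p = 0.000375), in the circumbracteal (-4.07 ± 1.31, adjusted p = 0.0211) and foliar nectary (-6.62 ± 1.46, adjusted p = 0.00173) and in the leaf (-6.50 ± 1.46, adjusted p = 0.00156). The foliar nectary call was lost without pre-secretory replicate 1 (adjusted p = 0.0691), and the circumbracteal one without pre-secretory replicate 1, post-secretory replicate 2 or 3, or the 4 samples of low detection (0.0855, 0.0688, 0.0705 and 0.0999).

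The other GASA13 rows were far less abundant. LOC107951994 averaged 48.8 and was lower in the floral nectary before secretion, with 9.2 and 1.9 against 95.8, 61.4 and 174 in the adjacent tissue (log2 fold change -4.23 ± 1.22 (SE), limma adjusted p = 0.0233). At secretion it measured 1.82, 0 and 0 in the nectary, against 14.4, 65.9 and 24.2 (log2 fold change -4.39 ± 1.09 (SE), limma adjusted p = 0.00704). The first of these calls held in 1 of 5 fits that each left out an RNA sample (highest adjusted p = 0.242) and the second in 5 of 6 (0.0652 without control replicate 2). Post-secretory against pre-secretory, LOC107951994 fell in the circumbracteal nectary and the tissue beside it (limma adjusted p = 0.00657 and 0.00834). It also fell in the foliar nectary and the bracteal control (0.0056 and 0.0119). The circumbracteal nectary groups overlapped, and none of these calls held in every fit that left out a sample. XP_016741012.1, which has no gene name in the annotation used, was listed at 0 in all 3 secretory floral nectary samples, against 20.9, 35.4 and 31.3 in the adjacent tissue, and was called lower (limma adjusted p = 0.0152). That call was lost without nectary replicate 2 or control replicate 2 (adjusted p = 0.0532 and 0.0645). All 3 GASA13 rows thus had negative fold changes at each of the 9 stages, between -6.78 and -1.03 on the log2 scale. Reads of near-identical copies can be shared among rows, which cannot be resolved in this table.

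Of the 7 GASA1 rows, LOC107940708 and LOC107938108 were abundant in most tissues (means 2006 and 1909). GASA1 is one of the gibberellin-induced family members of Arabidopsis. Both were low in the young leaf beside the foliar nectary. LOC107940708 measured 1832 and 2780.3 in the pre-secretory foliar nectary, against 193 and 91.4 in the young leaf beside it (log2 fold change 4.08 ± 0.96 (SE), limma adjusted p = 0.0263). LOC107938108 measured 1449 and 2929.6 in that nectary, against 127 and 113 in the leaf (log2 fold change 4.09 ± 1.02 (SE), limma adjusted p = 0.0435). In the mature pair the samples overlapped, with 2067, 1206 and 1023 of LOC107938108 in the nectary, against 2506, 1046 and 576 in the leaf. That row rose in the leaf itself, post-secretory against pre-secretory (log2 fold change 3.25 ± 0.93 (SE), limma adjusted p = 0.014). None of these calls held in all fits that left out an RNA sample. With 2 samples a group, both foliar nectary calls were lost whichever was left out (adjusted p = 0.068 to 0.442 for LOC107940708 and 0.129 to 0.445 for LOC107938108). The rise in the leaf was lost without pre-secretory replicate 1 or 3 or post-secretory replicate 1 (0.0975, 0.0895 and 0.083).

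In the floral nectary LOC107938108 measured 564 and 206 before secretion, 736, 1010.3 and 7036 at secretion and 10463, 11909 and 4061 after it. The tissue beside it measured 384, 565 and 38.8, then 1342, 514 and 890.3 and 3239, 1958 and 914. All post-secretory nectary samples lay above all adjacent ones, yet the difference did not pass (log2 fold change 2.15 ± 0.84, adjusted p = 0.182). With the replicate number as a block it did pass (limma adjusted p = 0.0324). The 3 secretory nectary samples ranged over almost an order of magnitude, with replicate 3 the highest.

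LOC107905506 and LOC107961304 form a second GASA1 pair (means 617 and 602) that was near 0 in some groups and among the most abundant family rows in others. In the pre-secretory foliar nectary LOC107905506 measured 1445 and 2399, against 32.7 and 0 in the young leaf (log2 fold change 8.33 ± 1.30 (SE), limma adjusted p = 0.000161). LOC107961304 measured 2004 and 2942 in the nectary, against 19.0 and 5.66 in the leaf (log2 fold change 7.72 ± 1.48 (SE), limma adjusted p = 0.00275). These were the largest called rises of any family row in a nectary against its adjacent tissue, and the groups did not overlap. LOC107905506 held its call in 3 of 4 fits that left out a sample, all but that without control replicate 3 (adjusted p = 0.0815), and LOC107961304 in 2 of 4 (without nectary replicate 2, 0.0722, and control replicate 3, 0.123).

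The mature leaf also carried both rows. LOC107905506 had 4334, 3189.7 and 1728 in the post-secretory foliar nectary, against 2769, 699 and 466 in the mature leaf, and LOC107961304 had 3871, 2843 and 1589, against 1882, 554 and 365. Leaf replicate 1 was the highest leaf sample for both rows and reached into the nectary range. Both rows rose in the leaf, post-secretory against pre-secretory, LOC107905506 by 7.38 ± 1.19 (adjusted p = 2.17e-05) and LOC107961304 by 5.98 ± 1.35 (adjusted p = 0.00165) on the log2 scale, and in every limma fit that left out a sample. The nectary itself showed no called change over the same stages (0.63 ± 1.19 and 0.10 ± 1.35). The difference between the nectary's change and the leaf's did not pass either (adjusted p = 0.119 and 0.491).

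The same pair changed most in the circumbracteal nectary. LOC107905506 measured 1956, 2195 and 1378 at the post-secretory stage, against 19.6, 0 and 0 at the pre-secretory stage (log2 fold change 9.37 ± 1.06 (SE), limma adjusted p = 3.47e-08). LOC107961304 measured 2455, 2384 and 1551, against 0, 0 and 3.58 (log2 fold change 10.30 ± 1.21 (SE), limma adjusted p = 6.5e-08). The pre-secretory values lie at or near 0, so the size of these rises depends on the 1 added before taking logarithms. Both calls held in all 6 fits that left out a sample and without the 4 samples of low detection. In the adjacent circumbracteal tissue LOC107905506 had 624, 347 and 283 post-secretory, against 55.4, 62.0 and 29.2 pre-secretory, and LOC107961304 had 429, 215 and 295, against 23.8, 58.2 and 38.6. These groups did not overlap either, but neither change was called (adjusted p = 0.0636 and 0.121). At the pre-secretory stage both rows were called lower in the nectary than beside it (adjusted p = 0.0134 and 0.0163). These calls were lost without the 4 samples of low detection (0.761 and 0.0996) and without control replicate 2 (0.0542 and 0.067), that of LOC107905506 also without nectary replicate 2 or 3 (0.0564 and 0.102).

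The change in the nectary exceeded that in the adjacent tissue for both rows when the difference itself was tested, by 6.31 ± 1.5 (SE) for LOC107905506 (adjusted p = 0.0266) and 7.33 ± 1.71 for LOC107961304 (adjusted p = 0.0239) on the log2 scale. Together with the GASA6 row below, they were the family rows called in this test, 2 higher and 1 lower, where 0.565% and 0.463% of all rows were. Without the 4 samples of low detection neither GASA1 difference passed (0.647 and 0.172). The difference for LOC107905506 was also lost without nectary replicate 3 (pre-secretory) or 2 (post-secretory) or control replicate 2 or 3 (post-secretory), at adjusted p of 0.0733, 0.0571, 0.0565 and 0.0629, and that for LOC107961304 without control replicate 2 (post-secretory, 0.0549), which left 1 call in this test. In the other nectary types limma called no family row in this test. The rows with an unadjusted p under 0.05 numbered 3 for the floral nectary at secretion, 3 after it, 3 for the bracteal and 4 for the foliar nectary, and 0.147%, 0.0225%, 0.0102% and 0.121% of all rows were called. Each of 3 single samples left out gave 1 call there: floral nectary secretory replicate 2 (at secretion) or 3 (after it), and foliar control pre-secretory replicate 1.

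In the floral nectary the pair measured 11.2 and 15.2 (LOC107905506) and 20.5 and 4.75 (LOC107961304) before secretion. At secretion LOC107905506 measured 7.3, 44.6 and 344 and LOC107961304 6.39, 35.1 and 454, and after it 1495, 824 and 752 and 1125, 584 and 1024. Both rose from secretion to the post-secretory stage, LOC107905506 with a log2 change of 4.27 ± 1.06 (adjusted p = 0.0146) and LOC107961304 of 4.15 ± 1.21 (adjusted p = 0.0408). Secretory replicate 3 again lay nearest to the post-secretory samples. LOC107905506 lost the call without secretory replicate 1 or 2 or post-secretory replicate 1 (0.179, 0.0944 and 0.0845), and LOC107961304 lost it in 5 of 6 such fits, all but that without secretory replicate 3 (highest adjusted p = 0.32). Before secretion LOC107905506 was at 0 in all 3 adjacent samples, against 11.2 and 15.2 in the nectary, and was called higher there (adjusted p = 0.0381) at a low level. It also rose in the adjacent tissue at secretion, to 30.5, 1.65 and 55.5 (adjusted p = 0.0332). The first call was lost in each of 5 fits that left out a sample (highest adjusted p = 0.187) and the second in 5 of 6 (0.243).

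**Figure D4:**
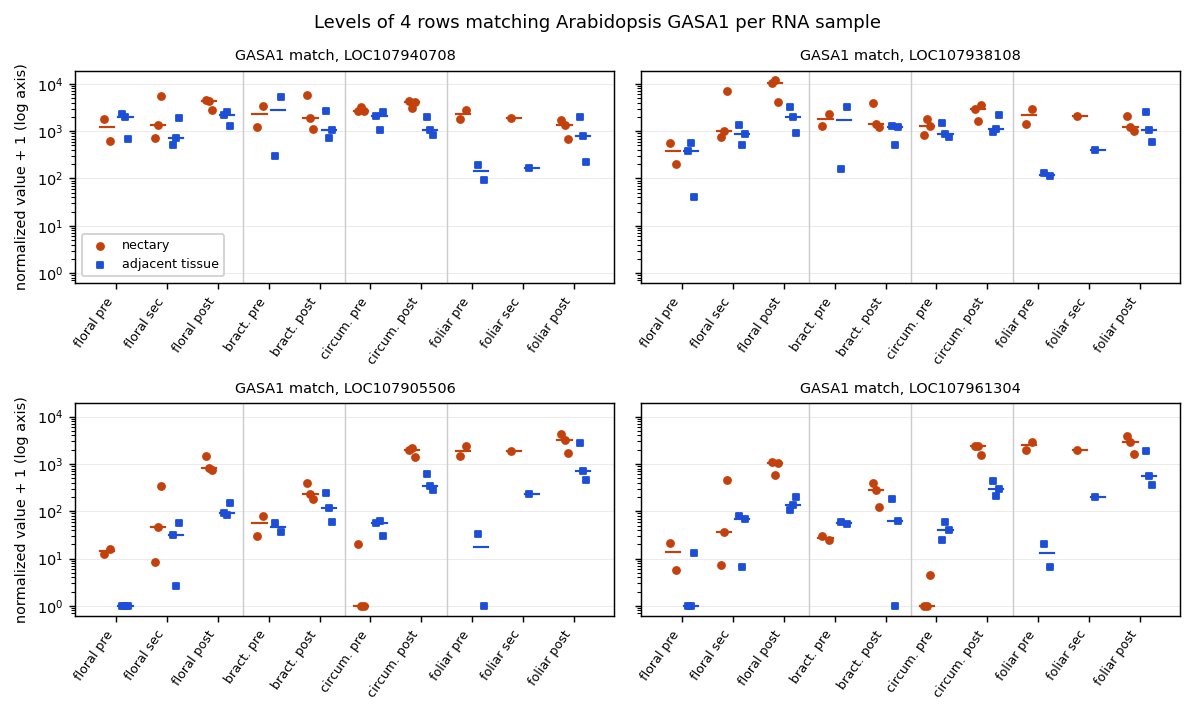
Normalized value plus 1 (log axis) of 4 rows matching Arabidopsis GASA1 in each RNA sample of the nectary (orange circles) and its adjacent tissue (blue squares), by nectary type and stage, with lines at group medians. All rows are higher in the pre-secretory foliar nectary than in the young leaf, and LOC107905506 and LOC107961304 stand near 0 in the pre-secretory circumbracteal nectary and between 1378 and 2455 in the post-secretory one.

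The remaining GASA1 rows were LOC107903178 (mean 195), LOC107951567 (mean 47.9) and LOC107947516 (mean 3.69). LOC107903178 measured 320.1 and 189.9 in the pre-secretory floral nectary, against 963, 694 and 685 beside it, without overlap, a difference that did not pass (adjusted p = 0.385). It was called higher in the post-secretory circumbracteal nectary, with 295, 399 and 409 against 343, 34.3 and 3.21 (adjusted p = 0.0164), although adjacent replicate 1 lay inside the nectary range. This call was lost without nectary replicate 2 or control replicate 2 or 3 (0.0573, 0.0547 and 0.26) and without the samples of low detection (0.24). It fell in the foliar nectary, to 5.03, 18.3 and 14.0, against 89.6 and 87.8 (adjusted p = 0.0425), a call lost in each of 5 fits that left out a sample (highest adjusted p = 0.274), and in the leaf, to 0, 2.63 and 2.79, against 40.5 and 7.28 (adjusted p = 0.0335), lost in 2 of 5 (0.541 without pre-secretory replicate 1). LOC107951567, annotated snakin-2-like, rose in the floral nectary at secretion, with 53.8, 260.2 and 199.7 at secretion, against 5.11 and 0 before (log2 fold change 5.85 ± 1.48 (SE), limma adjusted p = 0.0126). That call was lost without pre-secretory replicate 2 (0.191) or secretory replicate 2 (0.053). LOC107951567 fell in the foliar nectary to 8.38, 0 and 16.7, against 363 and 179 at the pre-secretory stage (adjusted p = 0.00969), and in the leaf to 0, 7.02 and 2.79, against 268 and 307 (adjusted p = 0.00168). The nectary call was lost without pre-secretory replicate 1 (0.172) or post-secretory replicate 2 (0.0801). It was listed at 0 in all pre-secretory circumbracteal nectary samples, against 31.7, 15.5 and 35.9 in the adjacent tissue, and was called lower there (adjusted p = 0.0213), in 3 of 6 fits that left out a sample and not without the samples of low detection (0.193). LOC107947516 did not exceed 36.9 in any RNA sample. It measured 31.6, 6.58 and 19.9 in the post-secretory floral nectary and was listed at 0 in all secretory samples, and this rise was called (adjusted p = 0.0226, held in 2 of 6 fits that left out a sample).

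GASA14 is a proline-rich family member that regulates leaf expansion and redox balance in Arabidopsis. In the floral nectary after secretion 4 of its 6 cotton rows rose, and none fell, where 3.91% of all rows were called in either direction. LOC107933623 isoform X2, annotated snakin-2-like and the most abundant (mean 667), measured 60.3 and 31.3 before secretion, 34.7, 17.1 and 867 at secretion and 2669.8, 932 and 1889 after it (post-secretory against secretory, log2 fold change 4.35 ± 0.86 (SE), limma adjusted p = 0.00189). Its isoform X1 row, which can share reads with X2, changed by 3.69 ± 0.99 (adjusted p = 0.0239). LOC107890905 was at 332, 16.0 and 243 after secretion and listed at 0 in all secretory samples (adjusted p = 0.000106). LOC107958586 measured 3007, 346 and 738 after secretion, against 15.5, 30.4 and 362 at secretion (log2 fold change 4.00 ± 1.14 (SE), limma adjusted p = 0.0368), and these groups overlapped. Secretory replicate 3 was the sample nearest to the post-secretory ones in the rows with a value there.

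Leaving out that replicate raised the number of family rows called after floral secretion to 11, and leaving out secretory replicate 2 lowered it to 1. It was 2 without secretory replicate 1 or post-secretory replicate 1, and 3 without post-secretory replicate 3. LOC107933623 isoform X2 lost its call in 1 of the 6 fits, without secretory replicate 2 (adjusted p = 0.0732), and LOC107890905 kept it in all 6 fits. LOC107958586 and isoform X1 of LOC107933623 lost it in 4 of 6 (highest adjusted p = 0.239 and 0.266). In the floral control no GASA14 row was called between these stages, with log2 changes of -0.47 to 2.12, nor was the difference of the nectary's change and the control's called for any of them (0.47 to 5.63). All control samples after secretion still lay above all those at secretion for both isoforms of LOC107933623 and for LOC107958586.

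In the other nectary types 2 of the 6 GASA14 rows fell in the bracteal, 3 in the circumbracteal and 2 in the foliar nectary, post-secretory against pre-secretory, and none rose. Of all rows, 4.58%, 22.4% and 12.3% were called in either direction there. LOC121202833 fell in the bracteal nectary, to 1.16, 8 and 7.67 post-secretory, against 179.7 and 429 pre-secretory (log2 fold change -5.66 ± 0.95 (SE), limma adjusted p = 0.00018). In the circumbracteal nectary it measured 1.48, 1.55 and 13.6, against 315, 121 and 179 (adjusted p = 1.09e-05), and in the foliar nectary 42.8, 52.3 and 18.4, against 1076 and 1636 (adjusted p = 0.000187). It fell likewise in the adjacent circumbracteal tissue (log2 change -5.09 ± 0.85) and in the leaf (-4.74 ± 0.95), with adjusted p of 9.44e-05 and 0.00044. All 5 calls held in every fit that left out a sample. At the post-secretory bracteal stage it was lower in the nectary than in the adjacent tissue, which had 57.1, 55.8 and 27.2 (log2 fold change -3.04 ± 0.85, adjusted p = 0.0423), a call lost whichever sample was left out (highest adjusted p = 0.262). LOC107890905 was at 0 in all secretory floral nectary samples, as above, against 7.22, 29.6 and 17.9 beside them, and was called lower there (adjusted p = 0.009, lost without control replicate 2, 0.0664). It fell in the bracteal nectary, to 3.49, 14.0 and 5.76, against 159 and 168 (adjusted p = 0.0189), held in 1 of 5 fits that left out a sample (highest adjusted p = 0.212). It fell in the circumbracteal nectary, to 0, 0 and 40.8, against 509, 174 and 270.2 (log2 fold change -6.38 ± 1.04 (SE), limma adjusted p = 1.9e-05), and in the tissue beside it, to 3.32, 0 and 0, against 578, 204 and 213 (log2 fold change -7.49 ± 1.04 (SE), limma adjusted p = 7.23e-06). Without the 4 samples of low detection the nectary call did not pass (0.136). LOC107958586 fell in the circumbracteal nectary (log2 change -4.94 ± 1.14, adjusted p = 0.00151), in the foliar nectary (-3.81 ± 1.28, adjusted p = 0.0433) and in the leaf (-4.07 ± 1.28, adjusted p = 0.0257). The foliar nectary call was lost in each of 5 fits that left out a sample (highest adjusted p = 0.189), the leaf call without pre-secretory or post-secretory replicate 3 (0.274 and 0.16), and the circumbracteal one without post-secretory replicate 2 (0.0501) or the samples of low detection (0.286).

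Before floral secretion 2 GASA14 rows were lower in the nectary than beside it, where 7.99% of all rows were called in either direction. LOC107933623 isoform X2 measured 60.3 and 31.3 there, against 662, 945 and 83.6 in the adjacent tissue (log2 fold change -3.08 ± 0.96 (SE), limma adjusted p = 0.0396), a call held in 1 of 5 fits that left out a sample (highest adjusted p = 0.249). LOC121202833 measured 4.09 and 5.7, against 118, 76.3 and 121 (log2 fold change -4.15 ± 0.95 (SE), limma adjusted p = 0.00339), held in 4 of 5 (lost without nectary replicate 1, 0.0698). In the post-secretory circumbracteal tissue isoform X2 had 124, 67.6 and 59.9, against 2209, 624 and 1477 pre-secretory (log2 fold change -3.98 ± 0.86 (SE), limma adjusted p = 0.00201), while the nectary kept 211, 293 and 1527, against 2322, 1539 and 2119 (log2 change -2.10 ± 0.86, adjusted p = 0.0745). LOC107961462 (mean 2.87) was the sixth GASA14 row and was not called in any comparison. At the post-secretory foliar stage, where same-numbered samples deviate together, it had 1.68, 0 and 7.02 in the nectary, against 17.1, 1.76 and 20.5 in the leaf, and it passed with the replicate number as a block (adjusted p = 0.04, against 0.286 without it). Without control replicate 2 it also passed (0.0422).

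**Figure D5:**
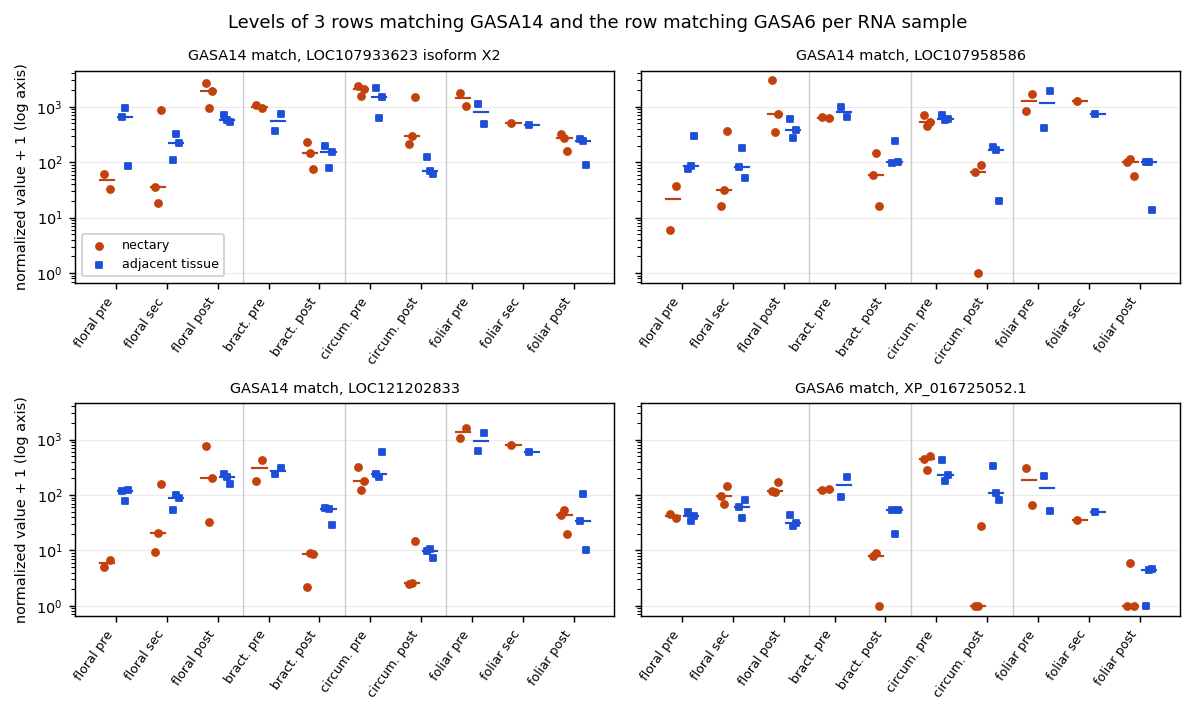
Normalized value plus 1 (log axis) of 3 rows matching GASA14 (LOC107933623 isoform X2, LOC107958586 and LOC121202833) and of the row matching GASA6 in each RNA sample of the nectary (orange circles) and its adjacent tissue (blue squares), by nectary type and stage, with lines at group medians. Among floral nectary stages the medians of the GASA14 rows are highest after secretion, whereas in bracteal, circumbracteal and foliar nectaries their post-secretory medians lie below the pre-secretory ones.

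The GASA6 row XP_016725052.1 (mean 102), annotated RSI-1 for a tomato gene of lateral root initiation, was lower in the post-secretory circumbracteal nectary than beside it. GASA6 promotes cell elongation in germinating Arabidopsis seeds. It measured 0, 0 and 27.2 in the post-secretory nectary, against 339, 109 and 80.2 in the adjacent tissue (log2 fold change -5.57 ± 0.89 (SE), limma adjusted p = 0.000118). In the pre-secretory pair it measured 437, 287 and 501 in the nectary, against 421, 175 and 227 beside it. It therefore fell in the nectary (log2 fold change -7.03 ± 0.89 (SE), limma adjusted p = 2.78e-07) but not in the adjacent tissue at the threshold used (-0.83 ± 0.89, adjusted p = 0.622). The difference of the changes was -6.20 ± 1.26 (adjusted p = 0.00902) and was called in all 12 fits that left out a sample. The nectary samples at 0 were replicates 1 and 2, both of low detection. Without the samples of low detection the difference between tissues and the difference of the changes did not pass (0.463 and 0.435), while the fall in the nectary did.

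The GASA6 row also fell in the bracteal nectary, to 6.98, 8 and 0 post-secretory, against 119.8 and 126 pre-secretory (log2 fold change -4.90 ± 0.99 (SE), limma adjusted p = 0.00174), and was lower there than in the adjacent tissue, which had 53.4, 18.6 and 53.3 (log2 fold change -3.22 ± 0.89, adjusted p = 0.0388). The tissue call was lost without nectary replicate 3 or control replicate 1 or 3 (0.327, 0.144 and 0.141), and the fall without pre-secretory replicate 3 (0.0569). In the foliar nectary it fell to 0, 4.99 and 0, against 301 and 65.8 (adjusted p = 2.86e-05), and in the leaf to 0, 3.51 and 3.72, against 217 and 50.2 (adjusted p = 0.000212). In floral nectaries it measured 44.0 and 37.0 before secretion, 94.0, 67.4 and 145 at secretion and 115, 113 and 167 after it, without a call.

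The other GASA4 rows were less abundant. LOC107961547 (mean 70.4) measured 103, 188 and 236 in the post-secretory floral nectary and was listed at 0 in all 3 adjacent samples, and it was called higher there (adjusted p = 0.000149, and in all 6 fits that left out a sample). At secretion it measured 6.39, 6.65 and 103 in the nectary, against 0, 1.65 and 0 beside it. This did not pass without the replicate number as a block (adjusted p = 0.0538) and did with it (0.00759). In the circumbracteal nectary LOC107961547 fell, to 35.5, 40.3 and 2.09, against 272, 221 and 193 (adjusted p = 0.024), a call lost without pre-secretory replicate 1 or post-secretory replicate 3 (0.0552 and 0.182). LOC107937403 (mean 108) fell in the foliar nectary, to 8.38, 8.31 and 7.02, against 271 and 144 (adjusted p = 0.0329), and in the leaf, to 0, 11.4 and 0, against 199.9 and 102 (adjusted p = 0.00306). The nectary call was lost in all 5 fits that left out a sample, and the leaf call without pre-secretory replicate 1 (0.0677).

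The rows of GASA9, GASA7 and GASA3 had means of 26.9 or less. LOC107910501 (GASA9, snakin-2-like) fell in the foliar nectary, to 0, 0 and 8.78, against 197 and 126 (log2 fold change -6.22 ± 1.44 (SE), limma adjusted p = 0.00289), and lost that call without pre-secretory replicate 1 (0.0749). LOC107889358 (GASA9) fell in the bracteal control, to 0, 2.19 and 0, against 39.0 and 22.0 (adjusted p = 0.0311), a call held in 1 of 5 fits that left out a sample (highest adjusted p = 0.179). LOC107932592 (GASA7, peamaclein-like, after a peach allergen) did not exceed 19.8 in any RNA sample and was not called in any comparison. LOC107903112 (GASA3, also peamaclein-like) was above 0 in 6 RNA samples, 5 of them floral. It measured 0, 10.4 and 0 in the secretory nectary, against 36.9, 34.6 and 31.3 in the adjacent tissue (log2 fold change -3.97 ± 0.84 (SE), limma adjusted p = 0.00145), and it was called higher in that tissue at secretion than before, when all samples were at 0 (adjusted p = 0.000237). Both calls held in all 6 fits that left out a sample. The spread behind them is estimated over all groups, and in most groups every sample of this row was at 0. In the post-secretory floral control it ranged from 0 to 46.0.

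At the secretory foliar stage, with 1 RNA sample each and no test, the nectary had 1917 of LOC107905506 and 1939.5 of LOC107961304, against 228 and 198 in the leaf. The abundant GASA1 rows had 1915 (LOC107940708) and 2058 (LOC107938108) in the nectary, against 167 and 407 in the leaf. LOC107892384 had 1786 in the nectary, against 3577 in the leaf, and LOC107942981 2387, against 6985. The nectary values of all 4 GASA1 rows were thus above the leaf values, and those of the GASA4 and GAST1-like rows below them.

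As a description over the 51 RNA samples, which share groups and sequencing, the log2 values of the isoforms of LOC107933623 had a Pearson r of 0.94, those of LOC107905506 and LOC107961304 of 0.91, and those of LOC107958586 and LOC121202833 of 0.85. LOC107892384 and LOC107942981 had 0.70, and LOC107940708 and LOC107938108 0.75. The rows outside the family whose pattern was most like LOC107892384, among 12500 with a mean of at least 100, were an adenosylhomocysteinase-like row (r = 0.928), an acyl-lipid (9-3)-desaturase-like row (0.912), a DOWNSTREAM OF FLC-like row (0.909), cycloartenol-C-24-methyltransferase (0.905) and the uncharacterized LOC107938749 (0.903).

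The 7 rows of the other Arabidopsis GASA genes (matching GASA8, GASA10 and GASA11) were called as follows. In at least 1 stage comparison 6 of the 7 were called lower (21.2% of all rows) and 1 of these also higher (22.6%), and 1 was called lower between nectary and adjacent tissue (16.8%). The most abundant, a peamaclein-like GASA8 row, averaged 518 ± 274 (SD, n = 3) in the post-secretory floral nectary, against 40.1 ± 28.9 (n = 3) at secretion (log2 fold change 3.83 ± 1.03, limma adjusted p = 0.0247). In the foliar nectary it averaged 34.6 ± 29.2 (n = 3) after secretion, against 1012 ± 635 (n = 2) before (-5.11 ± 1.15, adjusted p = 0.00217).

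Genes of gibberellin synthesis, which make the hormone through CPS, KS, KO, KAO, GA20ox and GA3ox, had 25 rows. Between nectary and adjacent tissue 4 were higher and 4 others lower in at least 1 of 9 comparisons, where 8.88% of all rows were higher and 16.8% lower at least once. Of 17 rows of the inactivating GA2ox enzymes, 2 were higher and 3 lower. Of 15 tested rows of the receptors GID1 and the F-box protein SLY1, 3 were higher and 3 lower, and of 18 DELLA rows 3 were higher and 4 lower. No row of these 4 lists was called in the tests of the difference of changes. Over the 10 stage comparisons 22.6% of all rows were called higher and 21.2% lower at least once. Receptor rows were called higher in 7 and lower in 2 of 15, with 4 higher and 2 lower in the circumbracteal nectary, where 12.4% and 10.1% of all rows were. DELLA rows were called higher in 2 and lower in 6 of 18, with 4 lower and 1 higher in the foliar nectary, where 12.3% of all rows were called in either direction.

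The most abundant row of each of these lists was not called in any comparison. A CPS row, the enzyme of the first committed step, averaged 498 ± 44.2 (n = 2) in the pre-secretory floral nectary, against 428 ± 177 (n = 3) beside it. A DELLA row matching RGA averaged 844 ± 118 (n = 2) in the pre-secretory foliar nectary, against 1321 ± 105 (n = 2) in the leaf. A GID1C row averaged 246 ± 64.3 (n = 3) in the post-secretory floral nectary, against 549.9 ± 146 (n = 3) in the tissue beside it, and a GA2ox1 row 386 ± 169 (n = 2) in the pre-secretory floral nectary, against 91.6 ± 78.8 (n = 3).

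Markers of other cell types moved beside some of these results. The summed mesophyll level (4 rows of a light-harvesting gene) was 3444 to 10970 in the pre-secretory foliar nectary, against 9944 to 26210 in the young leaf, where none of its 4 rows was called. The summed level of xylem markers (12 rows) was 87.8 to 164.4 in that nectary, against 259.4 to 295.4 in the leaf, with no row called lower. The summed phloem level (9 rows) was 2020 to 3761 in the post-secretory foliar nectary, against 731.4 to 941.1 in the pre-secretory one, and 3685 to 5043 in the mature leaf, against 598.8 to 998.6 in the young leaf, with 2 of 9 rows called higher in each. In the circumbracteal nectary the summed xylem level was 31.37 to 110.1 post-secretory, against 139.6 to 222.8 pre-secretory (5 of 12 rows called lower), and the phloem level 871.6 to 1714, against 368.6 to 697.9 (2 of 9 rows called higher). The tissue beside it had xylem levels of 41.72 to 151.8 post-secretory, against 148.3 to 226 pre-secretory (no row called), and phloem levels of 1018 to 1610, against 332.3 to 743.5 (1 row called higher). The mesophyll level in the pre-secretory circumbracteal pair was 826.8 to 1744 in the nectary, against 2372 to 6593 in the adjacent tissue (1 of 4 rows called lower). In the post-secretory pair it was 1225 to 1853, against 2313 to 5450. In the floral nectary the mesophyll level was 2499 to 3750 after secretion, against 238.3 to 1660 at secretion, with no row called. The tissue beside it had 2153 to 2571, against 940.4 to 1463. The floral xylem level at secretion was 46.53 to 56.02 in the nectary, against 157.6 to 190.2 before. Beside it the xylem level was 103.8 to 127.6, against 265.2 to 400.7. Of all rows, 12.3% were called in either direction over stages in the foliar nectary and 14.3% in the leaf. The shares were 22.4% in the circumbracteal nectary and 9.02% beside it, and 7.16% between the pre-secretory circumbracteal tissues. Over the 10 stage comparisons 2 of the 9 phloem rows were called higher at least once and 1 lower. No row has RBCS1A, LHCB1.1, CYCB1;1 or CDKB1;1 as its best match, and other genes of photosynthesis or of the cell cycle were not used here as markers. The part of these cells in the family's changes was not tested, and fewer cells of a type cannot be told apart from less RNA per cell in such pools.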

How the data were processed

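The measurements are RNA-seq values of 51 RNA samples of Gossypium hirsutum TM-1, in 20 groups, each in 2 sequencing runs held in separate columns. The authors deposited a signal per predicted protein. The study's methods describe mapping with BLASTN to the UTX-JGI cotton genome and its transcripts, and upper-quartile normalization, but the rows carry NCBI protein accessions and the samples' upper quartiles differ, so which annotation and scaling made these values is not given in the sources used here. From the values themselves they look like read counts scaled by a factor of the row and rounded. Low values take multiples of a step (1.61 to 3.13 in the 18 family rows where a step could be read), so they are not raw counts and no count model was fitted.

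Runs were summed (Pearson r between runs at least 0.993), and each RNA sample was divided by its 75th percentile factor (0.559 to 1.247). Rows with a deposited value of at least 10 in 2 samples were kept. A limma fit (version 3.58.1, R 4.3.3) to log2(value + 1) over all 51 samples, with a mean-dependent prior, gave 24 comparisons. A row counted as called where the Benjamini-Hochberg adjusted p was under 0.05 and the groups differed 1.5-fold or more (0.585 in log2 units). Fold changes are on the log2(value + 1) scale, which understates changes of low rows. The SE is limma's. The study states how many reads were sequenced, but the reads behind a deposited value are not known, so no counting interval is given, and a row at 0 is described as listed at 0.

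Rows described by rule were the 2 most abundant rows of each Arabidopsis match, and in each comparison the 2 largest rises and 2 largest falls among called rows with a mean of at least 100 and no overlap. The remaining calls and the uncalled pairs given with values were added after their values were seen. The family members and all gene lists were chosen with earlier results of these data known. Gene names came from RefSeq by protein accession (22 of 24 rows).

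Deviations of nectary and adjacent samples with the same replicate number had a positive correlation in all 3 pairs at each stage with 3 such pairs. Several of these values were near 0. Pearson r was 0.287, 0.166 and 0.31 at the secretory and 0.121, 0.074 and 0.108 at the post-secretory floral stage. It was 0.328, 0.211 and 0.168 at the post-secretory bracteal and 0.208, 0.197 and 0.175 at the post-secretory foliar stage. In the circumbracteal pairs it was 0.043, 0.033 and 0.068 before and 0.13, 0.016 and 0.217 after secretion. Nectary replicate 2 and control replicate 1 of the post-secretory circumbracteal stage had 0.061. Stages with fewer such pairs had 0.408 and -0.117 (pre-secretory floral), 0.28 and 0.28 (pre-secretory bracteal) and 0.386 (pre-secretory foliar). The replicate number was also fitted as a block, in all tissue comparisons but the pre-secretory foliar one and in all stage comparisons. Equal numbers at different stages are not known to pair samples. Alternatives were another normalization, a pseudocount of 10, no filter, a fit of the compared groups alone, either run alone, the block, leaving out each sample, and, chosen after seeing the data, leaving out the 4 samples with under 38000 rows above 0. The code was tested on simulated data. Secretory bracteal and circumbracteal samples, and further secretory foliar samples of the series, were not analysed here.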

Additional observations from a re-analysis of the deposited data

Results flagged for a closer look

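In 3 rows the change between stages differed between the circumbracteal nectary and the tissue beside it, by a test of the difference itself (post-secretory against pre-secretory, nectary change minus adjacent change, limma). The GASA1 rows LOC107905506 and LOC107961304 rose more in the nectary, by 6.31 (adjusted p = 0.0266) and 7.33 (adjusted p = 0.0239) on the log2 scale. The GASA6 row XP_016725052.1 changed by -6.2 relative to the adjacent tissue (adjusted p = 0.00902). Without the 4 circumbracteal nectary samples of low detection the differences were 3.01, 7.64 and -3.13. That fit leaves the nectary without replicates at either stage, so it cannot decide whether the calls hold. Whether the low detection of those samples contributes was not tested beyond leaving them out.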

How the results depend on the processing

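Of 91 single-row values tested, none changed direction under any alternative, and 37 kept their side of the threshold in every fit that left out 1 sample. Without the low-value filter 91 of 91 kept it, with median-of-ratios normalization 90, with a pseudocount of 10 82, with run 1 alone 82 and with run 2 alone 85. When the fit held the compared groups alone, 61 of 89 did. With the replicate block 74 of 83 did, and without the 4 samples of low detection 11 of 26.

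With a pseudocount of 10 the number of family rows called was 7 in the post-secretory floral pair, 7 in the bracteal nectary, 1 between the later floral controls, 10 in the circumbracteal control, and in the tests of the difference of changes 1 for the flower at secretion and 2 for the foliar pair. With the compared groups alone it was 10 in the post-secretory floral pair, 1 in the post-secretory bracteal pair, 0 in the pre-secretory circumbracteal pair, 1 in the post-secretory foliar pair, 1 in the floral nectary after secretion, 7 in the bracteal nectary, 0 in the bracteal control and 1 in the circumbracteal difference. Run 2 alone gave 5 in the post-secretory floral pair, and run 1 alone 1 between the later floral controls. Without the 4 samples of low detection, an alternative chosen after seeing the data, the circumbracteal counts were 0 (pre-secretory pair), 1 (post-secretory pair), 5 (nectary over stages) and 0 (difference). The cause of these shifts was not tested. Shares of all rows called under each alternative are not given here, so these family counts cannot be read against them.

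With the replicate number as a block, the counts moved to 5 in the post-secretory floral pair, 5 in the post-secretory circumbracteal pair and 1 in the post-secretory foliar pair. In the first 2 of these, the correlations of same-numbered samples were positive but as low as 0.074 (floral) and 0.016 (circumbracteal). In the floral pair the block added calls of LOC107938108, LOC107905506 and LOC107937403 (limma adjusted p = 0.0324, 0.0169 and 0.0213). In the circumbracteal pair it added LOC107940708 and LOC107933623 isoform X2 (0.0141 and 0.032). In the third, and at floral secretion, the block changed 1 call each, of LOC107961462 and LOC107961547, and at the post-secretory bracteal stage none. Before floral secretion it added LOC107933623 isoform X1 and XP_016741012.1 (limma adjusted p = 0.0184 and 0.0332) and lost LOC107951994 (0.0556). No paired analysis was possible for the pre-secretory foliar pair because its groups share 1 replicate number.

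Leaving out 1 sample at a time gave 0 to 3 calls in the pre-secretory, 2 to 6 in the secretory and 2 to 2 in the post-secretory floral pair, 0 and 1 to 2 in the bracteal pairs, 1 to 4 and 1 to 6 in the circumbracteal pairs, and 0 to 2 and 0 to 1 in the foliar pairs, each before and after secretion. Over stages it gave 2 to 3 and 1 to 11 in the floral, 1 to 5 in the bracteal, 7 to 11 in the circumbracteal and 3 to 7 in the foliar nectary, and 1 to 4 and 0 to 1 in the floral, 0 to 3 in the bracteal, 5 to 9 in the circumbracteal and 8 to 12 in the foliar control. For the difference of changes it gave 0 to 1 in the flower at both steps, 0 in the bracteal, 1 to 4 in the circumbracteal and 0 to 1 in the foliar pair. Leaving out a sample of a group of 2 leaves 1 there, and so does leaving out the 4 samples of low detection in both circumbracteal nectary groups. Such a sample is then taken to vary like the other groups. The reads behind a deposited value are not known, and rows near 0 are the least precise.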
